A study of Drosophila melanogaster with 4 samples.

Results

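The Hox complexes of Drosophila melanogaster are stretches of chromosome arm 3R that hold the 8 Hox genes. The Antennapedia complex carries lab, pb, Dfd, Scr and Antp, and the bithorax complex carries Ubx, abd-A and Abd-B. Here their binding by CNC is described. CNC, the product of the cap'n collar gene, is a transcription factor of the basic leucine zipper class. The members were the listed CNC peaks whose midpoint lay on 3R from 2480000 to 2830000 (Antennapedia complex) or from 12480000 to 12800000 (bithorax complex), in coordinates of FlyBase release 5. This gave 5 peaks of the 4758 in the list and of the 1249 on 3R. The Antennapedia complex held 3 of them and the bithorax complex 2.

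The peaks come from chromatin immunoprecipitation and sequencing of whole embryos 16 to 24 h old, with 2 libraries of CNC immunoprecipitate and 2 of input DNA. Both groups are of the strain Y cn bw sp. Its labelled genotype has oc[R3.2] and y[1], then the eye colour alleles bw[1] and cn[1] with sp[1], Gr22b[1], Gr22d[1] and CG33964[R4.2]. It also has GstD5[1], LysC[1], Rh6[1], MstProx[1] and lab[R4.2]. The last of these is an allele of a Hox gene, and the sources used here do not say what it changes. The libraries enter 1 peak list with 1 score per peak, assigned by the authors, whose scale and threshold are not given. No spread between replicates and no test can therefore be given, the read depth is unknown, and all values below describe how listed peaks are placed. A stretch with no listed peak holds none that passed the authors' threshold, and weaker binding was not analysed here.

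Hox genes encode homeodomain transcription factors that give the segments along the head-to-tail axis their identity. Their order along the chromosome follows the order of the body regions they act in, and Polycomb and trithorax group proteins keep each gene silent or active in the right segments. In the fly head, an isoform of CNC acts beside Dfd in the mandibular segment, where it limits what Dfd does. Another isoform, the counterpart of vertebrate Nrf2, drives antioxidant and detoxification genes and is held in check by Keap1.

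CNC peaks were sparse over both complexes. They are 670 kb long and held 5 peaks, or 7.46 per Mb, against 45.9 per Mb over the remaining 27.1 Mb of 3R up to its last peak. The ratio of densities was 0.163, with an exact 95% interval from 0.0527 to 0.380 that covers counting error only. Since listed peaks of this factor lie in groups and are not independent, that interval is too narrow. The complexes made up 2.41% of the arm and held 0.400% of its peaks. None of the 5 peaks lay in or touched the span of a Hox gene or of any other protein-coding gene.

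In the Antennapedia complex all 3 peaks lay within 10.6 kb between Dfd and Scr. The strongest ran from 2635806 to 2636495, was 690 bp wide and scored 14.88, rank 1684 in the whole list. It lay in the span of the long noncoding RNA gene lncRNA:CR42651, 501 bp from mir-10, a microRNA gene that sits in Hox clusters of flies and vertebrates. The next peak followed after 124 bp, ran from 2636620 to 2636892 and scored 13.73. It lay inside lncRNA:CR42651 and the shorter lncRNA:CR45915 as well. Dfd, which specifies the mandibular and maxillary segments, was the nearest Hox gene to both, at 7655 bp and 8469 bp, while Scr was 12346 bp and 11949 bp away. With peaks under 200 bp apart merged, these 2 become 1 region.

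The third peak of the Antennapedia complex ran from 2646031 to 2646362 with a score of 10.27, rank 3421. It touched 7SLRNA:CR42652, which encodes the RNA of the signal recognition particle, and lay 342 bp and 427 bp from the lysine tRNA genes tRNA:Lys-TTT-2-1 and tRNA:Lys-TTT-2-2. Scr, which specifies labial and first thoracic identity, lay 2479 bp beyond it, the shortest distance between a Hox gene and a peak. This short stretch holds several copies of the same tRNA gene and 2 genes for 7SL RNA. How reads that match more than 1 copy were treated is not given, so the source of this peak is uncertain. Of the 79 tRNA genes on 3R, these included, 0 had a peak in their span, which allows a share of up to 3.80%, and 7 (8.86%) had one within 500 bp of an end, against 18.4% of all genes of the arm.

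The peaks of the bithorax complex were both single sites. One ran from 12589550 to 12589887, was 338 bp wide and scored 9.13, rank 4006, which is low in the list. It lay inside lncRNA:bxd, the bithoraxoid transcription unit in the regulatory region of Ubx, 29401 bp from the span of Ubx itself. The other ran from 12624381 to 12624694 and scored 13.45, rank 2045. This one lay between genes, and the nearest span, that of the long noncoding RNA gene lncRNA:CR45750, was 1627 bp away. It was 8637 bp from Glut3, a sugar transporter gene, and 8241 bp from abd-A, which specifies abdominal segments. Between these peaks lay 34.5 kb with none listed.

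**Figure D1:**
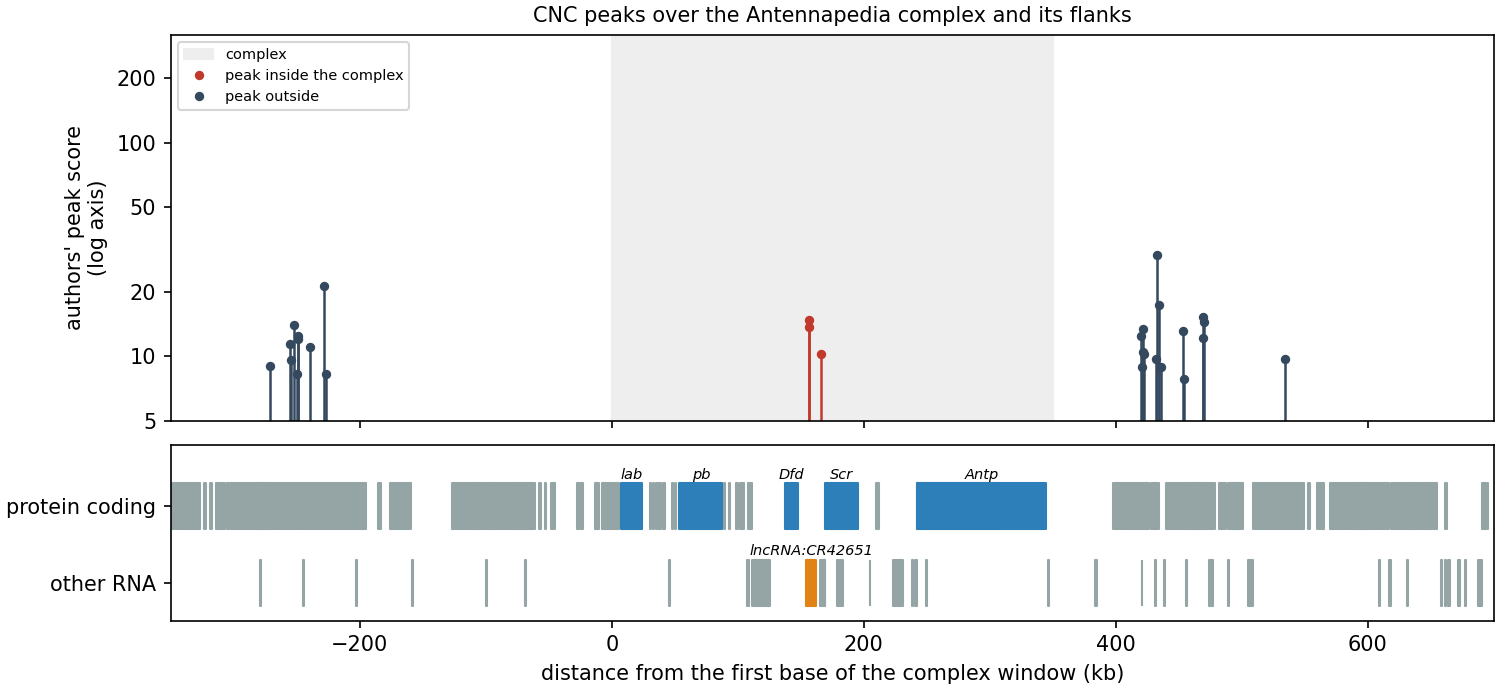
Authors' score of each listed CNC peak (upper panel, log axis) and gene spans (lower panel, Hox genes blue and lncRNA:CR42651 orange) over the Antennapedia complex (grey) with 350 kb on either side, by distance in kb from the first base of the window. The 3 peaks inside, with scores from 10.27 to 14.88, lie between Dfd and Scr, and none lies on a Hox gene.

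**Figure D2:**
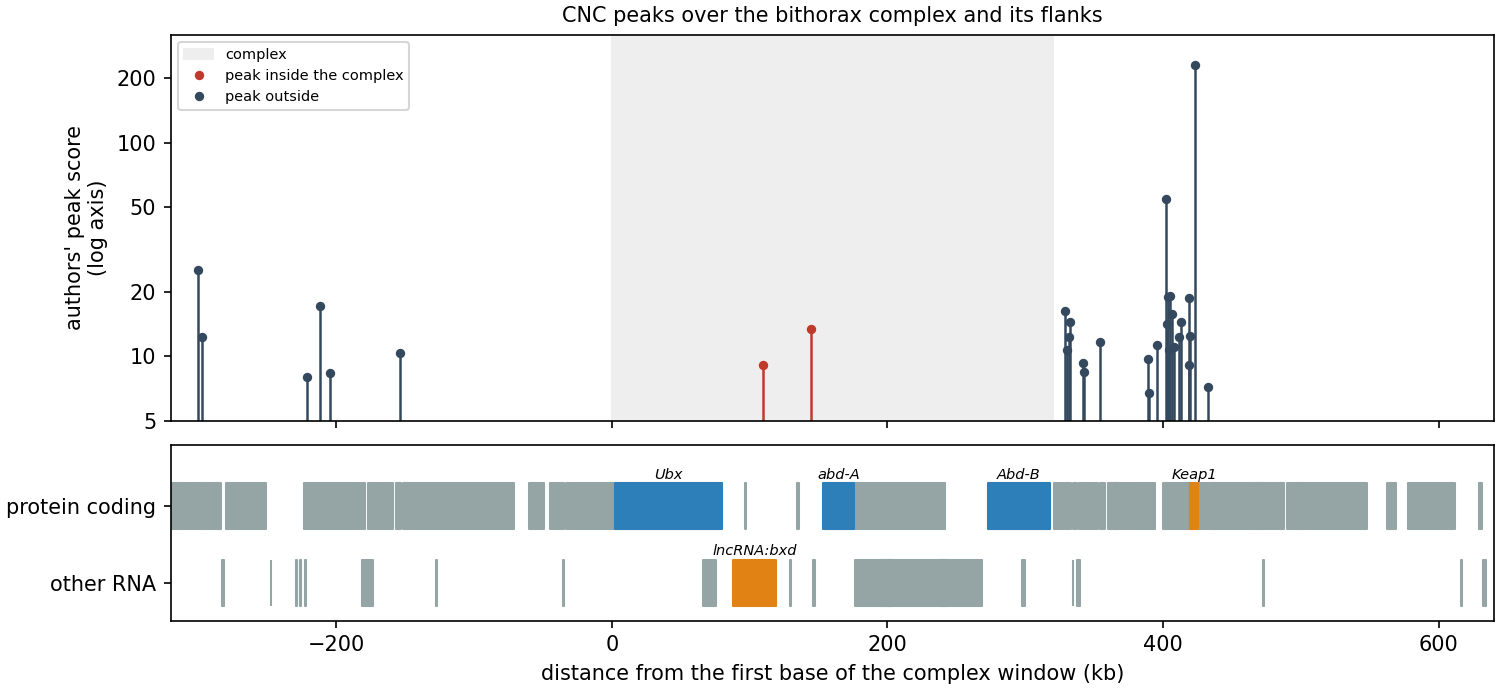
The same for the bithorax complex with 320 kb on either side, with lncRNA:bxd and Keap1 in orange. The 2 peaks inside score 9.13 and 13.45, while the peak of score 232.21 on Keap1 lies 99.8 kb past the window.

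The Hox genes themselves were free of listed peaks, and they differed in how far away the nearest one was. The gap was 2479 bp for Scr, 7655 bp for Dfd, 8241 bp for abd-A and 10863 bp for Abd-B, which specifies the hindmost segments. It was 29401 bp for Ubx, which sets the identity of the last thoracic and first abdominal segments. The nearest peak was much farther from pb (68020 bp), which acts in the mouthparts, from Antp (75196 bp), which acts in the thorax, and from lab (131493 bp), which acts in the most anterior Hox domain. For Antp and Abd-B the nearest peak was outside the complex, with scores of 12.52 and 16.39. The genes nearest to a peak were thus in the middle of the Antennapedia complex and in the bithorax complex, and those farthest from one were the other members of the Antennapedia complex.

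A Hox gene without a peak was not unusual by itself. Of the 435 genes on 3R with a span of at least 10.6 kb, that of Dfd as the shortest Hox gene, 33.8% had a peak touching their span, and 0 of the 8 Hox genes did. For all 4206 placed genes of 3R the share was 16.5%. The long genes other than Hox genes had a median distance to the nearest peak of 5558 bp. Of these 427 genes, 5 (1.17%) were as far from a peak as lab or farther, 34 (7.96%) as far as Antp and 37 (8.67%) as far as pb. For Scr, Dfd, abd-A and Abd-B the share was from 41.5% to 56.2%, and for Ubx 24.4%. Those 4 genes thus stood close to the middle of the long genes of the arm.

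Genes of about the length of each Hox gene were also mostly without a peak. Among 26 other 3R genes within 1.5-fold of the length of Antp (103 kb), 57.7% had no peak in their span, and among 48 within 1.5-fold of Ubx (77.8 kb) 68.8% had none. For the other Hox genes this share was between 63.9% and 71.3%. The long genes with the most peaks show how many a long gene can hold on this arm. Of the genes at least as long as Dfd, tara had the most with 28 peaks, followed by InR, the insulin receptor gene, with 17 and SNF4Agamma, which encodes a subunit of the AMP-activated kinase, with 15. The overlapping genes CG46467 and Glut4EF had 14 each.

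Over the 8 genes in sum, the Hox spans covered 338 kb, or 50.4% of both windows, and held 0 peaks, which allows up to 8.89 per Mb for counting error only. The spans of the other long genes of 3R held 489 peaks over 12.9 Mb, or 37.9 per Mb. At that density the Hox spans would hold 12.8. With 5 peaks in all, 0 inside Hox spans allows a share of up to 60% of them, so the list is too short to show that the peaks avoid the genes and favour the sequence between them.

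No peak lay within 500 bp of either end of a Hox gene span. The gene table gives no strand, so both ends were used and the start was not told from the end. Of the 4206 genes of 3R 18.4% had a peak at an end by this measure, and of the 435 long genes 25.5%. The count for the Hox genes stayed at 0 of 8 when the distance was 2000 bp, against 27.4% of all 3R genes. With only 8 genes, a count of 0 is weak evidence of a difference from these shares.

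The short genes of the Antennapedia complex that were listed beside the Hox genes lacked peaks as well. Of the 15 other listed genes of the Antennapedia complex, 0 had a peak in their span, against 16.5% of all 3R genes. All but ftz lay in the same stretch of 382 kb without a listed peak, so the 15 genes are not independent. Their median span was 0.910 kb. The cuticle protein genes Edg84A and Ccp84Aa to Ccp84Ag lay from 105180 bp to 124926 bp from the nearest peak. The early patterning genes zen2, zen and bcd were 65947 bp, 55889 bp and 50617 bp away. Ama, an adhesion molecule gene, lay at 44822 bp, the pair-rule gene ftz at 43683 bp and mir-993 at 33632 bp. Among these 15 genes mir-10 was the only one with a peak within 5000 bp.

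In the bithorax complex 1 of 6 placed genes of the list, lncRNA:bxd, held a peak, a share close to the 16.5% of all 3R genes. The long noncoding gene lncRNA:iab8, whose span covers 92.1 kb between abd-A and Abd-B, held none and lay 32143 bp from the nearest. The spans of mir-iab-4 and mir-iab-8, microRNA genes on opposite strands of the same sequence that are known to repress Ubx, lay 57302 bp from it. Glut3 lay at 8637 bp.

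The peaks that were listed in the complexes were ordinary in strength. Their scores ran from 9.13 to 14.88, while the middle 50% of the other 3R peaks ran from 10.1 to 17.45 and reached 232.21. The median was 13.73 in the Antennapedia complex and 11.29 in the bithorax complex, against 12.65 over the remaining 1244 peaks of 3R. The difference between the complexes was -0.31 in median log2 score (bithorax minus Antennapedia) and rests on 2 and 3 peaks whose scores overlap. Widths ran from 273 bp to 690 bp, with a median of 388 bp on the rest of the arm. Covered sequence was 1295 bp (0.370%) of the Antennapedia and 652 bp (0.204%) of the bithorax complex.

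Between the complexes the densities could not be told apart. The Antennapedia complex held 8.57 peaks per Mb (exact Poisson 95% interval 1.77 to 25.05) and the bithorax complex 6.25 per Mb (0.757 to 22.6). The ratio of bithorax over Antennapedia was 0.729, and its exact interval from 0.0609 to 6.37 leaves room for a large difference in either direction. If the close pair near mir-10 is counted as 1 region, each complex holds 2.

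Windows of the same size along 3R show how often the arm is this sparse. The Antennapedia complex was set beside 76 windows of 350 kb, laid end to end from its edges without touching either complex. They held from 0 to 58 peaks with a median of 14.0, and 6 of them (7.89%) had 3 peaks or fewer. For the bithorax complex, 82 windows of 320 kb held from 1 to 56 peaks with a median of 14.0, and 3 of them (3.66%) had 2 or fewer. That share rests on few windows and depends on the choices made. It was 7.32% with the 50% of peaks of highest score or with peaks under 1000 bp apart merged, and 12.3% with the windows moved by 100 kb. For the Antennapedia complex the 50% of peaks of highest score gave 18.4%. The median window had 2.14% of its bases covered by peaks at 350 kb and 2.77% at 320 kb. Both complexes were thus at the low end of the arm, yet windows as sparse occurred elsewhere.

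No window had the 3 peaks of the Antennapedia complex, and 6 windows differed from it by 1 peak. The 3 of these nearest to it on the arm ran from 7730000 to 8080000 and from 15780000 to 16130000, with 2 peaks each, and from 11230000 to 11580000 with 4. They held 50, 26 and 26 protein-coding genes. Closest to the bithorax complex were the windows from 7680000 to 8000000 and from 23360000 to 23680000, with 2 peaks each, and from 15040000 to 15360000 with 1. These held 41, 32 and 26 protein-coding genes, among them Cad87A, CG34353 and Dys as the longest of each.

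Both complexes are poor in protein-coding genes, and the part of this in the low counts was not tested. Across windows, peaks and protein-coding genes were loosely related, with Spearman's rho of 0.50 over the 76 windows and 0.39 over the 82, given as a description of windows of 1 list. The Antennapedia complex touched 24 protein-coding spans, against a median of 43.5 in its windows, and the bithorax complex 7, against 39.5. Of the 76 windows of 350 kb, 5 had 24 protein-coding genes or fewer. These 5 held from 0 to 20 peaks with a median of 6.00, and 1 of them had 3 or fewer. No window of 320 kb had as few protein-coding genes as the bithorax complex, so no window matches it in this respect.

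**Figure D3:**
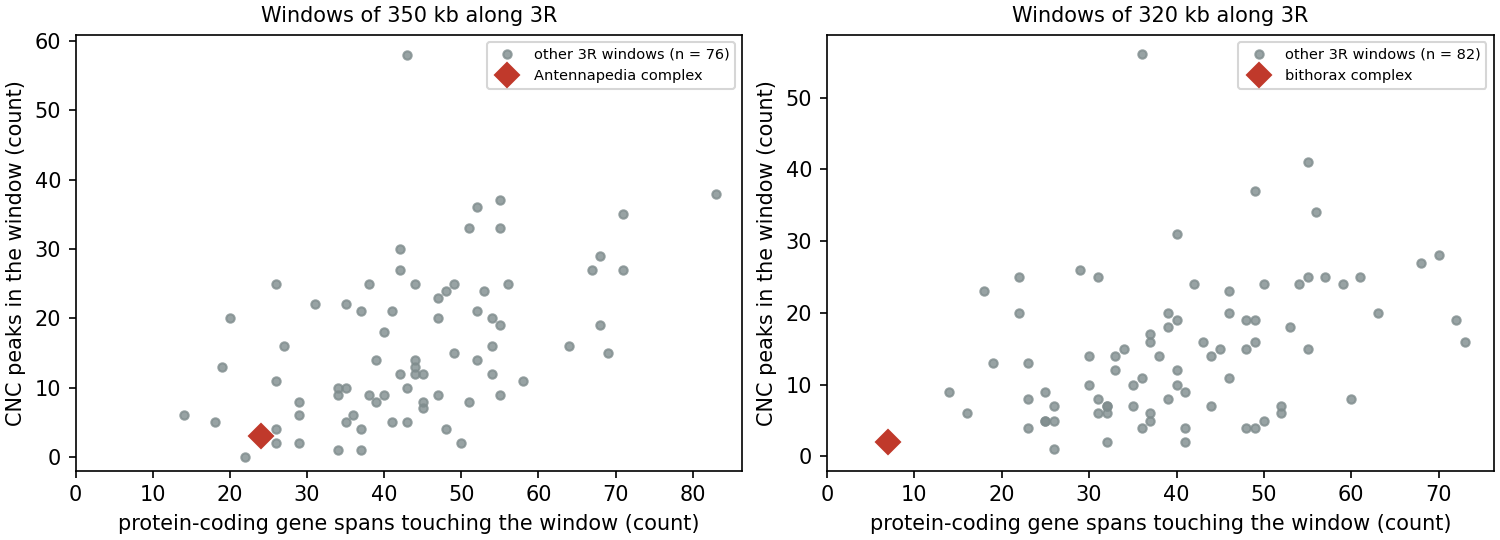
Listed CNC peaks against protein-coding gene spans per window, for windows of 350 kb (left, 76 grey points) and 320 kb (right, 82 grey points) along 3R, with each complex as a red diamond. The complexes lie low on both axes, with 3 peaks and 24 genes and with 2 peaks and 7 genes.

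More peaks were listed on each side of both complexes than within. In windows of the same length directly before and after the Antennapedia complex there were 10 and 15 peaks, against 3 inside. Around the bithorax complex there were 6 before and 24 after, against 2 inside. The flanks were richer in protein-coding genes, with 43 and 49 spans around the Antennapedia and 52 and 54 around the bithorax complex. Past the end of the bithorax complex, a peak of score 16.39 began 8.82 kb beyond the window at 12808822. At 99.8 kb beyond it lay the strongest peak of 3R, from 12899839 to 12906369 with a score of 232.21. It touched Keap1, the gene for the inhibitor of CNC. All 24 peaks after the complex lay before 12912630. From there a stretch of 307 kb held no listed peak, rank 9 by length among such stretches of the arm. On the other side of the bithorax complex, that of Ubx, the nearest outside peak lay 153 kb from the window.

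The Hox genes sat in some of the longest stretches of 3R without a listed peak. A stretch of 382 kb, the third longest of 1248 on the arm, ran from 2253712 to 2635805. It held lab, pb, zen2, zen, bcd, Ama and Dfd together with the cuticle genes, and it reached 226 kb past the complex on the side of lab. Scr, ftz and Antp lay in a stretch of 254 kb (rank 19), which reached 70.1 kb past the complex. Ubx lay in one of 263 kb (rank 17), of which 153 kb was outside the complex. The genes abd-A and Abd-B shared one of 184 kb (rank 35), which ended 8.82 kb past the complex. These lengths are thus not all sequence of the complexes. The median stretch was 1.33 kb, but long ones made up much of the arm. The 84 stretches of 100 kb or more made up 59.0% of it, and the 52 of 150 kb or more 44.3%.

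Other gene groups of 3R were placed the same way for comparison, with no test between groups. Of 19 other homeobox genes of the arm, 3 (hth, NK7.1 and zfh1) had a peak in their span, and 1 (ro, an eye development gene) had peaks at an end. These counts are near or below the 16.5% and 18.4% of all 3R genes. The gene hth, which encodes a cofactor that Hox proteins need to bind many of their sites, held 3 peaks with a highest score of 31.97. NK7.1 held 4, with a highest score of 33.54. The median distance to the nearest peak was 25224 bp for these 19 genes and 20132 bp for the 8 Hox genes. Of the 19, lbe at 92201 bp, ems at 73778 bp and C15 at 69592 bp lay farther from a peak than pb.

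The regulators of Hox genes and the antioxidant genes of 3R varied widely. Of 6 Polycomb and trithorax group genes placed on 3R, 2 had peaks in their span and 3 at an end, against 16.5% and 18.4% of all 3R genes. The 2 with peaks in their span, trx (23.5 kb) and osa (30.5 kb), are long. Among the 435 genes of at least 10.6 kb the shares were 33.8% and 25.5%. For the 6 genes the median distance to a peak was 1281.5 bp. The trithorax group gene osa, which encodes a subunit of the Brahma chromatin remodelling complex, held 12 peaks with a highest score of 57.43. The gene trx held 3 with a highest score of 26.79, and mor, of the same Brahma complex, had a peak 90 bp away. Of the others Scm lay 2473 bp, ash2 19257 bp and Sce 99689 bp from a peak. Among the 11 GstD genes, which encode glutathione transferases, and Keap1, 3 of 12 had a peak in their span and 5 at an end, beside the same shares of all genes. GstD1 was touched by a peak of score 78.09 and GstD2 by one of 33.9. GstD3 and GstD9 had a peak within 500 bp. The median distance to a peak in this group was 1577 bp. Neighbouring GstD genes share their nearest peak, so the 12 genes are not independent. The list was chosen with earlier results of these data known, so its contrast with the Hox genes is a description only.

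**Figure D4:**
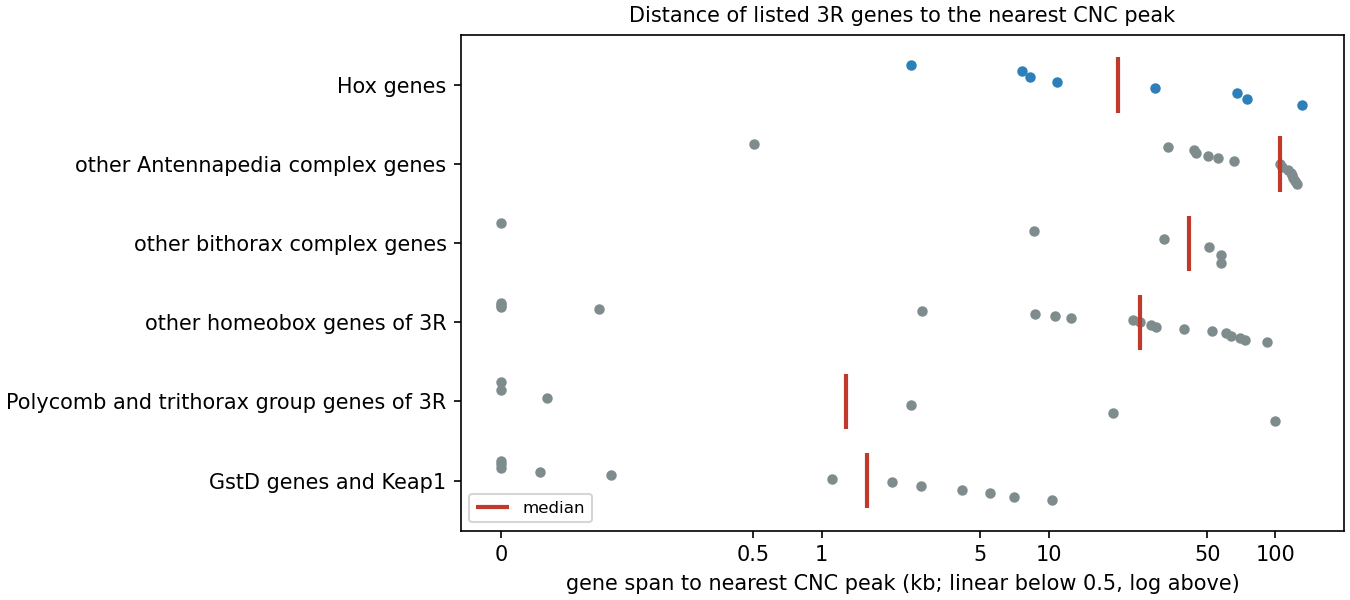
Distance in kb from each gene span to the nearest listed CNC peak, 1 point per gene, for 6 lists of 3R genes, with the median as a red line (axis linear below 0.5 kb and logarithmic above). All 8 Hox genes lie at 2479 bp or more. GstD1, GstD2 and Keap1, from a list chosen with earlier results of these data known, are touched by a peak.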

How the data were processed

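Per the file headers, the deposited peaks were placed on FlyBase release 5 and came from MACS. The score per peak was assigned by the authors, and the statistic behind it is not stated. Per the submitters' processing notes, CASAVA (1.7.0.2 and 1.7.0.3), BWA and MACS2 were used with BDGP5. Per the labels' protocols, fixation took 15 min in 1.8% formaldehyde. The antibody was the rabbit polyclonal KW0-CNC, and separate embryo collections per replicate are not stated.

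Gene spans came from a RefSeq table of release 6 without strand. Subtracting 4174278 bp, the constant shift given for this stretch of 3R, placed 4206 of its 4226 genes of 3R. As a check, 37.5% of 3R peak midpoints lay within 500 bp of a span end, against 26.8% and 28.7% with genes moved a further 10000 bp either way. Moved by 500 bp either way, the genes gave 34.7% and 36.2%. The check therefore cannot settle placement to within 500 bp, and shorter distances rest on the given shift. No gene coordinate is printed. Spans include introns, other promoters inside a span were not used, and no sequence was at hand.

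Planned work at gene starts was done at both span ends. Named were the Hox genes, listed genes in the complexes, all member peaks, nearest windows, the 5 genes of Dfd length or more with most peaks, and listed genes with a peak at an end. hth, NK7.1, zfh1, lbe, ems and C15 were named after their values were seen. Members and lists were chosen with earlier results of these data known. Intervals are exact (Clopper-Pearson, Poisson or conditional binomial) at 95%. A count of 0 was taken to allow 3, which gives the 60% stated for the share of member peaks in Hox spans. Recalculations of that share were judged against its exact interval, with an upper limit of 52.2%. Python 3.11.15, numpy 2.4.6, pandas 2.3.3 and scipy 1.17.1 were used, and the counting was tested on simulated lists. The alternatives covered peak selection, merging, windows and gene distance.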

Additional observations from a re-analysis of the deposited data

How the results depend on the processing

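Of 34 recalculations of the 6 main results, 32 stayed within the counting interval or spread of the reported value. That number is a weak check, since the allowed ranges were wide and some recalculations could only repeat a count of 0. The difference in median log2 score went from -0.31 to -0.088 with the 50% of peaks of highest score. This counted as unchanged because the allowed shift, the SD of log2 score over the member peaks, was 0.303. The share of 350 kb windows as sparse as the Antennapedia complex rose from 7.89% to 18.4% with the 50% of peaks of highest score, where fewer peaks were counted. The share for the bithorax complex rose from 3.66% to 12.3% with windows moved by 100 kb, and the cause was not tested. It was 7.32% both with the 50% of peaks of highest score and with peaks under 1000 bp apart merged. Overlapping windows started every 10 kb gave 6.18% and 6.73%. Both of these grids were chosen after seeing the data. The ratio of densities turned from 0.729 to 1.09 with peaks under 200 bp or under 1000 bp apart merged, within its wide interval. With 5000 bp added on both sides of the Hox spans, since the table has no strand, 1 of 5 peaks (that near Scr) fell inside. The count of Hox genes with a peak at a span end stayed at 0 under its 5 alternatives, including genes moved 1000 bp either way. Of these, the shorter distance and the smaller set of peaks could give only 0. No paired analysis was possible because scores are given once per peak and not by replicate, which also means that leaving out a replicate could not be tried. The depth of the libraries is unknown.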
